A study of Mus musculus with 9 samples.

Results

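The interferon-gamma-inducible GTPase genes are a family of immune genes that encode the immunity-related GTPases and the guanylate-binding proteins. The family was taken as 9 gene symbols, and their rows were looked up by symbol in the deposited expression table. Of these, Igtp, Irgm1, Gbp2, Gbp3, Gbp4, Gbp7 and Gbp9 were found, which makes 7 of the 14940 genes in the table, and all 7 were tested. Irgm2 and Tgtp1 had no row under those symbols and were not analysed here. RNA came from sorted bone marrow LSK cells (Lin-, Sca1+, cKit+), the fraction with blood stem cells and multipotent progenitors. All animals were C57BL/6 mice, with 3 libraries in each of 3 groups. The naive mice received no immunization. The EAE mice had been immunized 3 days earlier with the MOG35-55 peptide of a myelin protein in complete Freund's adjuvant, which starts experimental autoimmune encephalomyelitis, a model of multiple sclerosis. The SR59230A-treated mice had the same immunization and received SR59230A, a blocker of beta 3 adrenergic receptors, during those 3 days. No group had adjuvant without peptide or antagonist without immunization, and no vehicle is named for the EAE mice, so those parts cannot be told apart.

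Interferon-gamma is a cytokine of T cells and natural killer cells that acts through the receptor chains Ifngr1 and Ifngr2 and the kinases Jak1 and Jak2. Signals from the receptor reach gamma-activated sequences in promoters, interferon regulatory factors such as Irf1 bind interferon-stimulated response elements, and the GTPase genes are switched on. The GTPases assemble on the membranes of vacuoles that hold bacteria or parasites and damage them, and some also act on autophagy and inflammasomes. In blood stem cells, Irgm1 is known from knockout mice as a brake on interferon-driven proliferation.

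The promoters of the measured genes are shown first because they carry the motifs through which interferon signals reach this family. RefSeq windows on GRCm38.p6 run from 250 bases before to 50 after each start site, and were found for 5 of the 7 measured genes, Gbp4 and Gbp9 being the others. An interferon-stimulated response element was searched as GAAANNGAAA, and a gamma-activated sequence as TTCNNNGAA, on both strands. The first was found in windows of all 5 genes, against 3.99% of the 27025 genes with a window. The second was found in 2 of the 5, Igtp and Gbp7, against 9.55% of all genes, and it overlapped no response element. Gbp3 has a further window, downstream of its first, that holds neither. The stretches below hold the response elements in capitals and end at or before the start site. They are written on the strand of the gene, so that elements on the opposite strand appear as the reverse complement.
Igtp, chr11:58199497-58199555, plus strand: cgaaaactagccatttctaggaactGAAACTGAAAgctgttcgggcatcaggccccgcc
Irgm1, chr11:48871421-48871475, minus strand: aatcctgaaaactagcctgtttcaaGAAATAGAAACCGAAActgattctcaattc
Gbp2, chr3:142620579-142620638, plus strand: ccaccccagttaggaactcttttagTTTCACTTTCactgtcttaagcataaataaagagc
Gbp3, chr3:142559974-142560039, plus strand: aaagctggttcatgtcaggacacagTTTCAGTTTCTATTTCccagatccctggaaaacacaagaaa
Gbp7, chr3:142530258-142530317, plus strand: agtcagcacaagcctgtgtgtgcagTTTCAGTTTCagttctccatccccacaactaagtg
In Irgm1 and Gbp3, 2 overlapping elements form the capital run. The first element base lay 34 bases before the start site in Igtp, 30 in Irgm1, 59 in Gbp2, 45 in Gbp3 and 53 in Gbp7. These matches describe the letters of the windows and do not show binding.

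**Figure D1:**
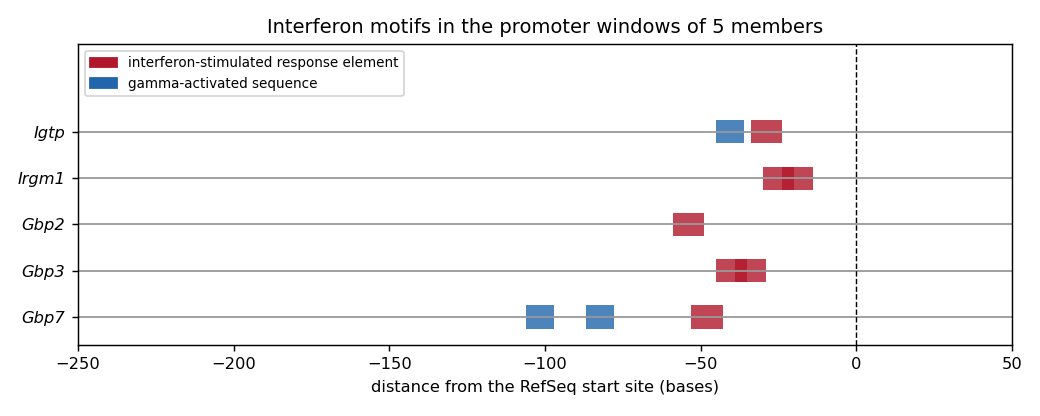
Positions of the interferon motifs in the RefSeq promoter windows of Igtp, Irgm1, Gbp2, Gbp3 and Gbp7, with distance from the start site in bases on the x axis. Red boxes are interferon-stimulated response elements and blue boxes gamma-activated sequences; each of the 5 windows has a red box within 59 bases before the start site.

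The genes lie in clusters on the reference. On chromosome 3 the order is Gbp5, Gbp7, Gbp3, Gbp2b and Gbp2. On chromosome 5 Gbp9 and Gbp4 are neighbours, between Gbp8 and Gbp10. On chromosome 11 Gm12250, which encodes Irgb10, precedes Igtp and Irgm2, and Irgm1 lies apart from them. Members of each cluster resemble one another in sequence, and how shared reads were counted is not stated, so the values of relatives are uncertain to that extent.

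The deposited values are whole numbers that the authors had adjusted, so the depth behind them is unknown and counting intervals are not given. They summed to between 8641735 and 10387955 per library, and were scaled here so that the median gene has the same level in each library. Levels below are these scaled values. Levels of different genes are not compared, since gene length could not be taken out. Group differences were tested for 13018 genes with limma-trend, and a change was called at a Benjamini-Hochberg adjusted p under 0.05. In EAE against naive mice 1189 genes rose and 664 fell, or 807 and 910 with upper-quartile scaling. In treated against naive mice 1332 rose and 600 fell, or 835 and 954 with upper-quartile scaling. In bulk RNA, more cells of a type and more RNA per cell cannot be told apart.

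Immunization alone raised 1 of the 7 measured members, Gbp3, by 1.77-fold, and the other 6 did not pass. That is 1 of 7 against 9.13% of all tested genes called higher in EAE than naive mice, and no member fell, against 5.1% of genes. In 2 of 7 members every EAE library was above every naive one (21% of all genes), and 4 of 7 had a positive log2 fold change (49.6% of all genes). At an unadjusted p under 0.05 there were 2 of 7 members, against 28.8% of genes. These shares are near the background, and the members' median log2 fold change was 0.05. In immunized mice given the antagonist, by contrast with naive mice, 4 of the 7 members rose, namely Igtp, Gbp2, Gbp3 and Gbp4, by 1.59-fold to 2.06-fold. There, 10.2% of all genes were called higher and 4.61% lower, and the members had a median log2 fold change of 0.81. All 7 had a positive log2 fold change (50.8% of all genes), an unadjusted p under 0.05 (31.1%) and treated libraries all above the naive ones (26.4%). In treated against EAE mice no member passed, and 1 gene in the table did, Car1, a carbonic anhydrase gene of red cell precursors, or 0.00768% of those tested. The members' values lay higher in the treated mice all the same: in 6 of 7 the lowest treated library was above the highest EAE library, against 8.46% of all genes, with a median log2 fold change of 0.67. All 7 log2 fold changes were positive, against 52.5% of all genes. At an unadjusted p under 0.05 there were 6 of 7 members and 3.87% of all genes. The members were chosen with such results known, and directions missing within the groups can raise the share of genes without overlap, so these counts are a description.

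**Figure D2:**
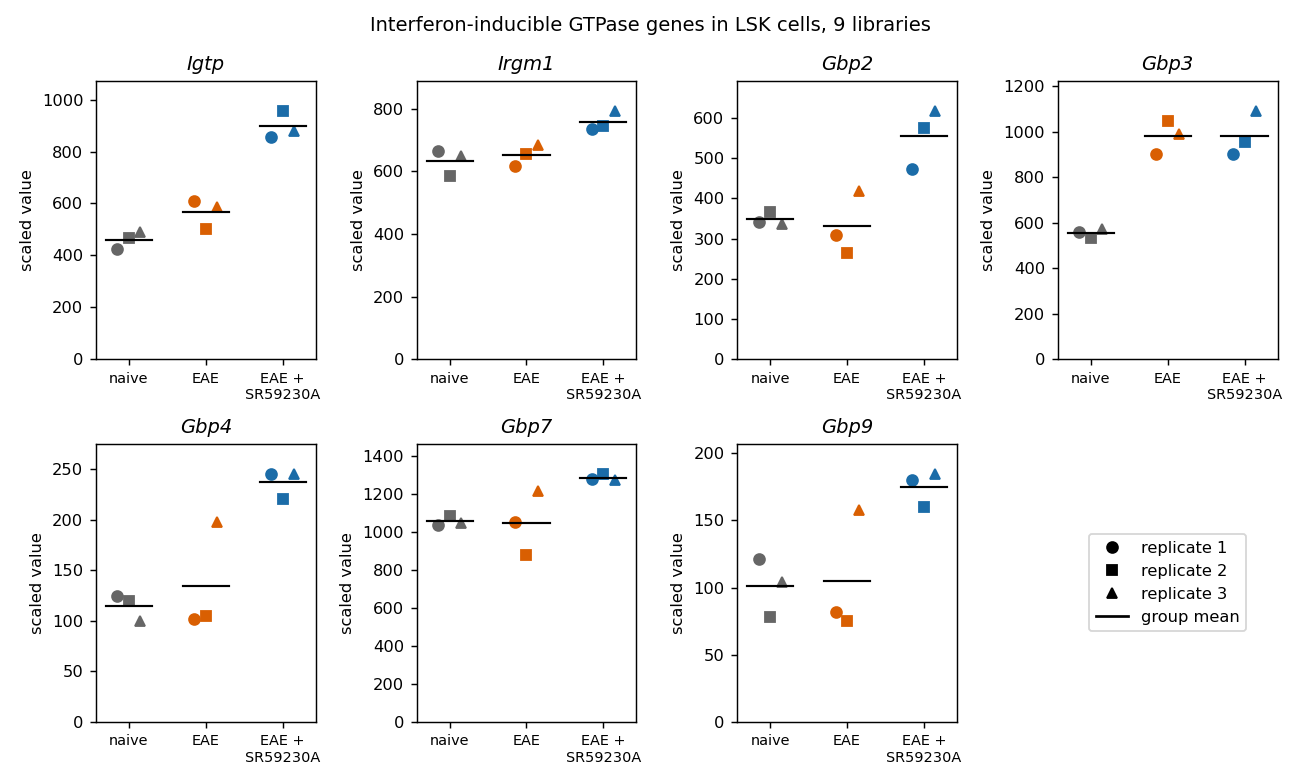
Scaled values of the 7 measured members in each library (y axis, from 0), by group on the x axis, with a marker shape for each replicate and a bar at the group mean. Gbp3 is high in both immunized groups, while the other 6 genes have their 3 highest values in the treated mice.

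Among the immunity-related GTPases, Igtp and Irgm1 encode members of the regulatory branch, which keep effector GTPases inactive on the membranes of the host cell. Igtp, also called Irgm3, stood at 424, 467 and 488 in naive, 611, 500 and 588 in EAE and 857, 957 and 880 in treated libraries. The 3 groups did not overlap, with naive lowest and treated highest. Igtp rose in treated against naive mice, by 0.97 ± 0.11 on the log2 scale (SE, adjusted p = 0.000337 by limma-trend). Its difference between EAE and naive mice was 0.30 ± 0.11 with adjusted p = 0.0995. That between treated and EAE mice was 0.67 ± 0.11 (95% interval 0.42 to 0.91), with unadjusted p = 7.46e-05 and adjusted p = 0.243.

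Irgm1, the regulator tied to stem cell proliferation, moved little. It stood at 664, 584 and 651 in naive, 618, 656 and 684 in EAE and 735, 747 and 794 in treated libraries. The treated libraries lay above the other 6, and naive and EAE libraries overlapped. None of its comparisons passed, with a log2 fold change of 0.26 ± 0.10 in treated against naive mice (adjusted p = 0.0939) and 0.05 ± 0.10 in EAE against naive mice (0.799, limma-trend). The 95% interval of the latter reached from -0.17 to 0.26, and in treated against EAE mice the interval was 0.00 to 0.43.

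The guanylate-binding proteins are large GTPases of the dynamin superfamily. Of the chromosome 3 genes, Gbp3 had a pattern of its own among the members. It stood at 558, 534 and 571 in naive, 901, 1046 and 988 in EAE and 902, 953 and 1091 in treated libraries. Every immunized library lay above every naive one, and EAE and treated libraries overlapped. Its log2 fold change was 0.82 ± 0.10 both in EAE and in treated mice against naive mice (adjusted p = 0.00056 and 0.000577 by limma-trend). Between treated and EAE mice the difference was 0.00, with a 95% interval of -0.23 to 0.23. The call in EAE against naive mice was kept under all 17 alternative settings (adjusted p from 0.000113 to 0.0468).

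Gbp2, whose protein is recruited to parasite vacuoles and is anchored there by a lipid tail, was not raised by immunization alone. Its values were 342, 366 and 336 in naive, 309, 263 and 418 in EAE and 474, 576 and 618 in treated libraries. The naive values lay within the range of the EAE values, and the treated values were above both. Against naive mice the treated mice were higher by 0.67 ± 0.17 on the log2 scale (adjusted p = 0.0213 by limma-trend). That call was lost without treated replicate 2 (0.0506), without treated replicate 3 (0.0566), without scaling (0.063) and with a chemosensory term described below (0.832), with 0.00206 to 0.832 over all its alternatives. The log2 fold change of Gbp2 in these fits was 0.63, 0.58, 0.55 and 0.47. Treated against EAE mice had a log2 fold change of 0.77 ± 0.17 and adjusted p = 0.857.

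Gbp7, which in macrophages is known to help assemble the phagocyte oxidase, varied least within the naive and treated groups. It stood at 1037, 1081 and 1048 in naive, 1049, 877 and 1215 in EAE and 1277, 1306 and 1270 in treated libraries. The treated libraries lay above all others by a small margin over EAE replicate 3. The log2 fold change was -0.02 ± 0.12 in EAE against naive mice, 0.28 ± 0.12 in treated against naive mice (adjusted p = 0.119) and 0.31 ± 0.12 in treated against EAE mice (0.998, limma-trend). None of these passed.

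Gbp4 and Gbp9, the chromosome 5 neighbours, had similar profiles. Gbp4 stood at 125, 120 and 99.8 in naive, 102, 105 and 198 in EAE and 246, 221 and 246 in treated libraries. EAE replicates 1 and 2 were at the naive level and EAE replicate 3 was near the treated level, so the coefficient of variation in the EAE group was 40.4%, against 11.6% in naive and 6.1% in treated mice. Gbp4 rose in treated against naive mice by 1.05 ± 0.24 on the log2 scale, 2.06-fold (adjusted p = 0.0136 by limma-trend). Against EAE mice its log2 fold change was 0.88 ± 0.24 with adjusted p = 0.998.

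Gbp9 stood at 121, 78.1 and 104 in naive, 81.6, 75.2 and 158 in EAE and 180, 160 and 185 in treated libraries. Again EAE replicate 3 stood apart from the other EAE libraries, and treated replicate 2 exceeded it narrowly. Its log2 fold change was 0.81 ± 0.27 in treated against naive mice, without passing (adjusted p = 0.0665, and 0.00587 to 0.891 over its alternatives by limma-trend). It passed without EAE replicate 1, 2 or 3 (0.0442, 0.0454 and 0.00857), with group coefficients alone (0.0352) and with the compared groups alone (0.00587).

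**Figure D3:**
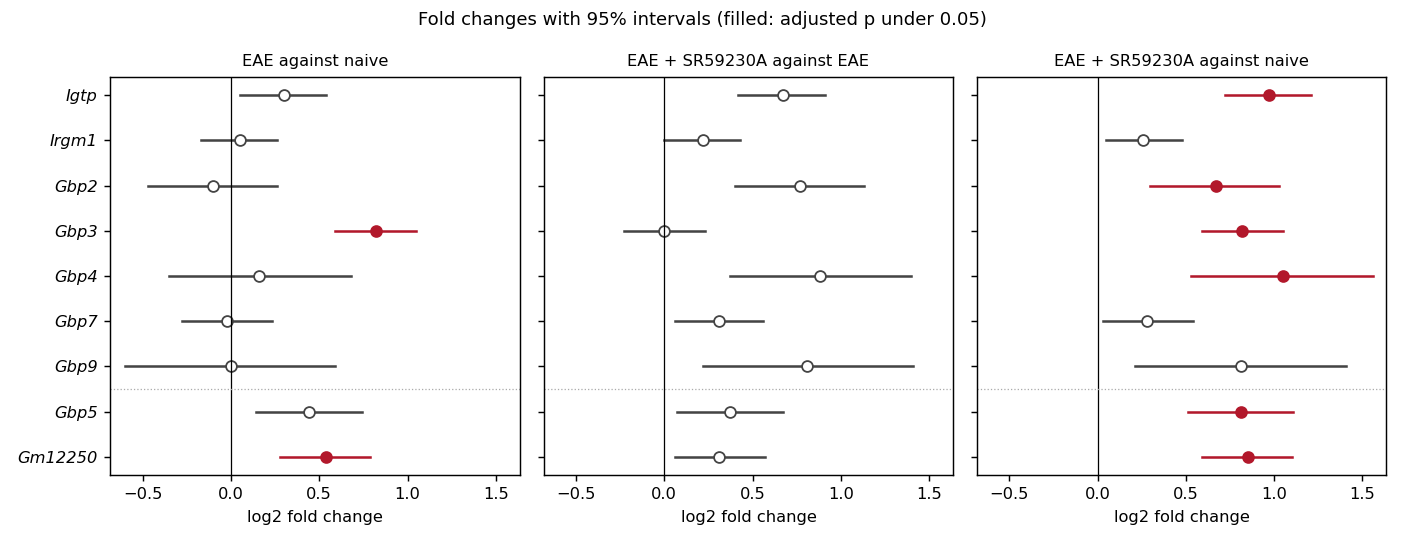
Log2 fold changes (x axis) with 95% intervals of the 7 measured members and, below the dotted line, of the relatives Gbp5 and Gm12250, in each of the 3 comparisons. Filled red points passed at an adjusted p under 0.05; in treated against EAE mice none is filled, and the interval of Gbp3 is centred on 0.00.

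The EAE mice differed among themselves in these genes. Relative to the naive mean, the median member was at -0.03 and -0.13 on the log2 scale in EAE replicates 1 and 2, and at 0.36 in EAE replicate 3. In EAE replicate 3 all 7 members were above the naive mean, and 5 had their highest value of the EAE group there. Replicate 2 held the lowest value of the group for 4 members. The summed neutrophil markers were also lowest in EAE replicate 2 (2834) and highest in EAE replicate 3 (14760), with 10493 in EAE replicate 1, and their part in the GTPase values was not tested. Other interferon-inducible genes differed among the EAE mice too, in both directions. In EAE replicates 1 to 3, Mx1 stood at 127, 131 and 262, Mx2 at 161, 141 and 282 and Cxcl10 at 209, 449 and 745. Psmb8 (3395, 3663 and 2893) and Ly6e (13626, 13958 and 12362) were lowest in EAE replicate 3. In the treated libraries the medians were 0.70, 0.73 and 0.89, and all 7 members were above the naive mean in each. Without EAE replicate 3 the treated against EAE difference was 1.19 for Gbp4 and 1.15 for Gbp9 on the log2 scale, still without passing (adjusted p = 0.0665 and 0.213, limma-trend). The same fit called all 7 members higher in treated than naive mice. In that comparison the EAE libraries enter through the shared estimate of the spread, the scaling, the filter and the missing directions. This fit held 1 missing direction in place of 2 and tested 12922 genes, so its gain in calls cannot be laid to the spread alone.

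Over the 9 libraries the members varied together to different degrees. Pearson's r of the log2 values over the 21 pairs had a median of 0.81, and 18 pairs were above 0.5. The closest pairs were Gbp2 with Gbp7 (0.94) and Gbp4 with Gbp9 (0.93), each within 1 cluster. Pairs across chromosomes came next, Gbp2 with Gbp4 (0.91), Gbp4 with Gbp7 (0.90) and Irgm1 with Gbp9 (0.89). Gbp3 had the lowest values, 0.29 with Gbp7, which is its neighbour on the chromosome, and 0.36 with Gbp2. These coefficients are over libraries of 3 groups that share their scaling and adjustment, and are given as a description. The non-member genes whose log2 values followed the members most closely, by mean r over the 7 members, were Saal1, Utp23 and H2-T24 (0.87 each), Cnp (0.86) and Clec2i (0.85). H2-T24 encodes a nonclassical MHC class I molecule and Clec2i a C-type lectin. The relative Gbp5 ranked 19 of 13011 genes by this measure, with a mean r of 0.82, and Gm12250 ranked 201 with 0.73.

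**Figure D4:**
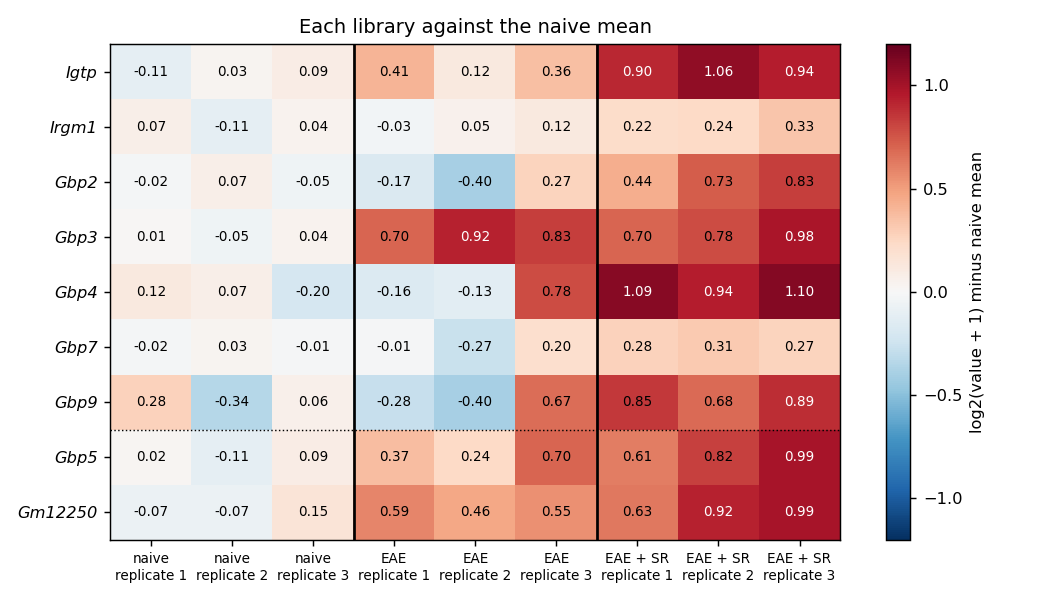
Log2(value + 1) of each gene in each library minus the mean of the naive libraries, with red for higher and blue for lower and the value printed in each cell. The 7 measured members stand above the dotted line and the relatives Gbp5 and Gm12250 below it. EAE replicate 3 reaches 0.78 for Gbp4 and 0.67 for Gbp9, where EAE replicates 1 and 2 are below the naive mean.

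Of 25 further GTPase symbols listed as relatives, 10 were in the table and 8 were tested. In EAE against naive mice 1 rose (9.13% of all tested genes) and none fell. In treated against naive mice 2 rose (10.2%), and in treated against EAE mice none passed. Gm12250, which encodes Irgb10, an effector GTPase that acts on bacterial membranes, stood at 600, 601 and 700 in naive, 953, 869 and 925 in EAE and 979, 1192 and 1259 in treated libraries. It rose by 0.54 ± 0.12 in EAE and 0.85 ± 0.12 in treated against naive mice (adjusted p = 0.0115 and 0.000915 by limma-trend). Gbp5, whose protein promotes inflammasome assembly, stood at 712, 650 and 747, at 908, 830 and 1143 and at 1072, 1236 and 1399 in the same order. It rose in treated against naive mice by 0.81 ± 0.14 (adjusted p = 0.00321), while EAE against naive mice missed the threshold at 0.44 ± 0.14 (0.0538, limma-trend).

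The remaining tested relatives did not pass in any comparison. Mx1 and Mx2, antiviral GTPases of the dynamin superfamily, had log2 fold changes of 0.53 ± 0.27 and 0.43 ± 0.23 in EAE against naive mice, and 0.86 ± 0.27 and 0.40 ± 0.23 in treated against naive mice. Gm4951 had 0.82 ± 0.40 and 1.25 ± 0.40, and F830016B08Rik 0.45 ± 0.47 and 0.74 ± 0.47. Irgq had -0.32 ± 0.13 and -0.40 ± 0.13. Gm12185 had -0.67 ± 0.21 and -0.02 ± 0.21, with all EAE libraries (44.7 to 64.2) below the naive (80 to 94.2) and treated libraries (75.8 to 92.7). Gbp11 and Gm5431 were too low to test, at no more than 8.83 and 7.72 in any library.

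Few of the signalling genes upstream passed, and those that passed went both ways. Of 21 listed, 19 were tested, and the others were not analysed here. In EAE against naive mice 2 rose and 2 fell, in treated against naive mice 3 rose and 1 fell, and in treated against EAE mice none passed. Both counts of rises include Socs3, whose test is set aside below. Over all tested genes 9.13% rose and 5.1% fell in EAE against naive mice, and 10.2% and 4.61% in treated against naive mice. In that order, then treated against EAE mice, 13, 15 and 15 of the 19, Socs3 included, had a positive log2 fold change. Over all genes these shares were 49.6%, 50.8% and 52.5%. At an unadjusted p under 0.05 by limma-trend there were 9, 10 and 4 (28.8%, 31.1% and 3.87% of all genes). The groups lay apart with the first higher in 7, 9 and 5 (21%, 26.4% and 8.46%), and lower in 4, 3 and 1. The ligand gene Ifng was low and uneven in every group, at 11.1, 32 and 5.6 in naive, 17, 29.5 and 37.3 in EAE and 26.3, 14.2 and 13.2 in treated libraries. The groups overlapped, and no difference passed. The receptor genes Ifngr1 and Ifngr2 had log2 fold changes of 0.32 ± 0.11 and 0.48 ± 0.15 in EAE against naive mice (adjusted p = 0.0667 and 0.0602 by limma-trend). In treated against EAE mice they had -0.16 ± 0.11 and -0.22 ± 0.15. The kinase genes Jak1 and Jak2 had -0.19 ± 0.11 and -0.30 ± 0.11 in EAE against naive mice, without passing.

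Among the transcription factors, Irf8, which drives monocyte and dendritic cell fates, rose in both immunized groups. It stood at 1186, 1395 and 1274 in naive, 2870, 2303 and 3453 in EAE and 4760, 3905 and 3416 in treated libraries. Its log2 fold change was 1.15 ± 0.16 in EAE and 1.64 ± 0.15 in treated against naive mice (adjusted p = 0.000885 and 7.97e-05 by limma-trend). Irf2, an antagonist of Irf1, fell in both (-0.38 ± 0.10 and -0.32 ± 0.10, adjusted p = 0.0242 and 0.0454). Irf1 itself had 0.11 ± 0.16 and 0.38 ± 0.16 against naive mice and did not pass. Stat3 rose in treated against naive mice by 0.42 ± 0.09 (adjusted p = 0.00819), with 0.24 ± 0.09 in EAE mice (0.0924). Stat2, Irf9 and Nlrc5, the activator of MHC class I genes, passed nowhere.

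Ciita, the activator of MHC class II genes, followed another order. It stood at 79.5, 80 and 73.7 in naive, 44, 43.7 and 47.6 in EAE and 80.8, 84 and 78.3 in treated libraries. It fell in EAE against naive mice by 0.78 on the log2 scale (adjusted p = 0.0187 by limma-trend). Treated and naive libraries overlapped, and treated against EAE mice gave 0.84 ± 0.19, with adjusted p = 0.975. Of the inhibitors, Socs3 had a log2 fold change of 2.10 in both EAE and treated against naive mice. Its naive level was 6.7 ± 1.55 (SD, n = 3). Socs3 passed the filter on low values only through the immunized libraries, so its test is not used and its values are a description. The phosphatase genes Ptpn2, Ptpn6 and Ptpn11 and the inhibitors Pias1 and Usp18 did not pass in any comparison.

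**Figure D5:**
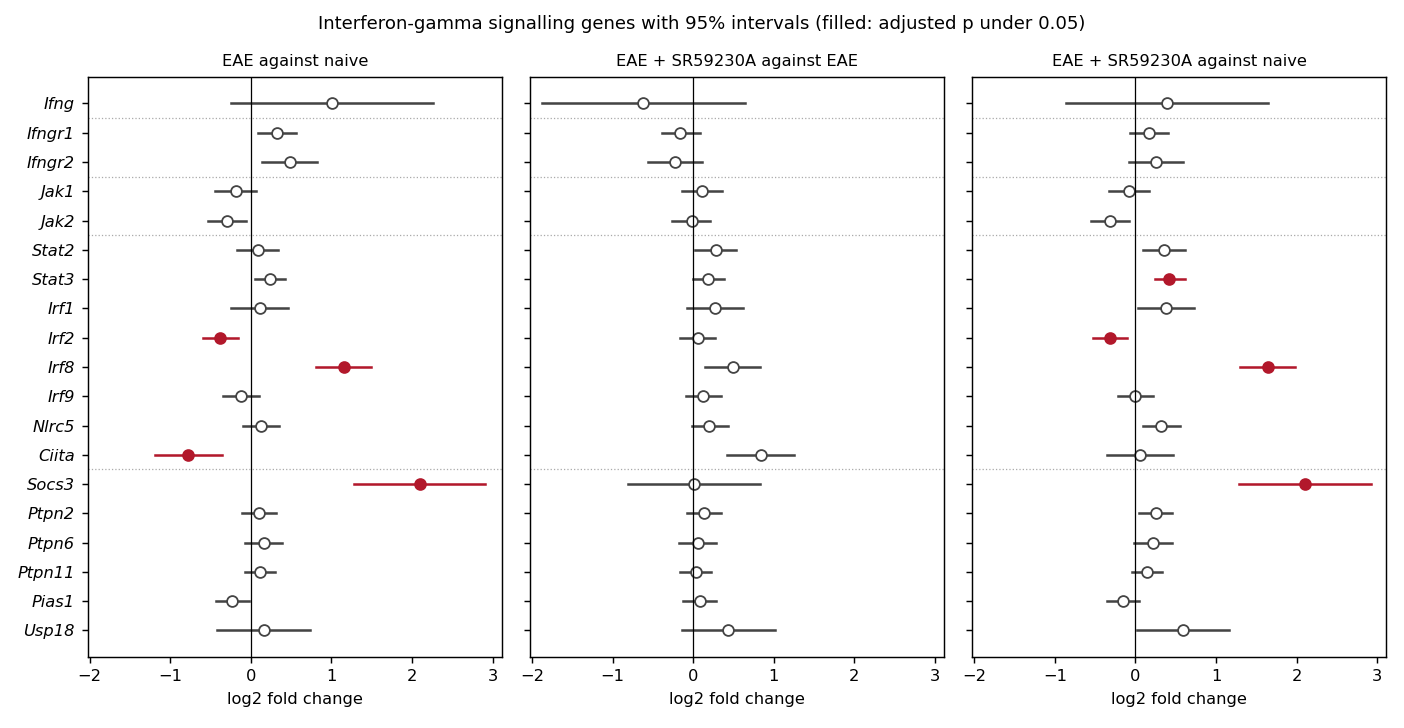
Log2 fold changes (x axis) with 95% intervals of 19 interferon-gamma signalling genes in each comparison, from ligand and receptors at the top through kinases and transcription factors to inhibitors at the bottom. Filled red points passed at an adjusted p under 0.05: Irf2, Irf8, Ciita and Socs3 in EAE against naive mice, Stat3, Irf2, Irf8 and Socs3 in treated against naive mice, and none in treated against EAE mice. The test of Socs3 is not used, since it passed the filter on low values only through the immunized libraries.

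Some other known interferon-gamma targets rose as well. Of 35 listed, 31 were tested. In EAE against naive mice 5 rose and 1 fell, against 9.13% and 5.1% of all tested genes, and the list's median log2 fold change was 0.09. Nampt, which makes an NAD precursor, rose by 0.53 ± 0.12, Casp1, the inflammasome protease gene, by 0.51 ± 0.10 and Psmb8, an immunoproteasome subunit gene, by 0.44 ± 0.13. The others that rose were Ly6a and Ly6e, and H2-Q4, an MHC class I gene, fell by 0.42. In treated against naive mice 9 rose and H2-Q4 fell, against 10.2% and 4.61% of all tested genes, and the median was 0.24. There the chemokine genes Cxcl10 and Cxcl9, whose products attract T cells, rose by 1.59 ± 0.39 and 1.56 ± 0.36 (adjusted p = 0.0192 and 0.0151 by limma-trend). Between treated and EAE mice none passed, and 28 of 31 had a positive log2 fold change, with a median of 0.14 against 0.67 for the GTPase genes and 0.01 for all genes. The difference between these lists was not tested.

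Genes known best as targets of type I interferon also rose in part. Of 33 listed, 29 were tested. Of the tested genes 4 rose in EAE against naive mice (9.13% of all genes) and 9 in treated against naive mice (10.2%), with none falling. In EAE mice these were Oas2 and Oas1a, which sense double-stranded RNA, Oasl1, and Bst2, which tethers budding viruses. Oas2 had log2 fold changes of 0.82 ± 0.16 in EAE and 0.90 ± 0.15 in treated against naive mice. None passed between treated and EAE mice, with a median of 0.11. There 25 of the 29 had a positive log2 fold change (52.5% of all genes). In 5 the treated libraries all lay above the EAE ones (8.46%), and in 1 below. Treated libraries lay above all naive ones in 18 (26.4%), and below in 1. Many genes on these lists respond to both kinds of interferon.

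Ly6a, which encodes Sca-1, is itself an interferon-inducible gene and part of the sort gate. It stood at 1430, 1729 and 1403 in naive, 2024, 1868 and 2364 in EAE and 2522, 2406 and 2323 in treated libraries. It rose in EAE and treated against naive mice by 0.46 ± 0.12 and 0.68 ± 0.12 on the log2 scale (adjusted p = 0.0226 and 0.00335 by limma-trend). Kit, the other gate gene, fell by 0.43 and 0.45. Of the 7 tested progenitor markers, gate genes included, 2 rose and 4 fell in EAE against naive mice (9.13% and 5.1% of all tested genes). Hlf and Mecom were among those that fell, and Cd48 rose. The means in naive, EAE and treated libraries were 3227, 1166 and 1239 for Hlf and 596, 326 and 307 for Mecom. For Cd48 they were 355, 541 and 462. The means of Flt3 (5577, 4116 and 4622) and Cd34 (7856, 6731 and 6572) were also lower in both immunized groups than in naive mice. The progenitor marker list, with 7 of 8 genes in the table, summed to 25349 to 26419 in naive, 19754 to 20264 in EAE and 20034 to 20990 in treated libraries. Whether a shift in the cells within the gate took part in the GTPase differences was not tested.

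Markers of cells outside the gate were followed as well. The T and natural killer cell list, with 8 of 10 genes in the table, summed to 766 to 865 in naive, 1014 to 1202 in EAE and 1065 to 1113 in treated libraries. Of its genes, Nkg7 and Klrb1c rose in both immunized groups. The T cell genes Cd3g and Cd8a were at no more than 6.06 and 8.08 in any library, and Cd8a was at 0 in EAE replicates 1 and 2. Cd4 stood at 132 to 210 in naive, 155 to 183 in EAE and 133 to 179 in treated libraries, which overlapped. The cytotoxic granule gene Gzma, too low to test, was at 1.88 to 4.03 in naive, 0 to 7.25 in EAE and 7.07 to 9.93 in treated libraries, so that the treated libraries lay above the naive ones. Prf1, another such gene, overlapped between groups, from 1.1 to 17.9. Ncr1, a natural killer cell receptor gene, stood at 1.01, 0 and 1.87 in naive, 4.48, 2.03 and 8.28 in EAE and 15.2, 15.2 and 14.3 in treated libraries. It passed the filter on low values only through the treated libraries, so its test is not used, and its values are given as a description.

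The macrophage list, with 4 of 7 genes in the table, summed to 536 to 866, 686 to 887 and 889 to 995 in naive, EAE and treated libraries. Cd68 carried most of that sum, at 526 to 783, 673 to 860 and 867 to 966, and rose in treated against naive mice by 0.54 ± 0.15 on the log2 scale (adjusted p = 0.0294 by limma-trend). C1qb and Adgre1, also on the list, reached no more than 12.1 and 17.2 in any library. Vcam1, the remaining gene, went the other way without passing, with log2 fold changes of -1.64 in EAE and -1.76 in treated against naive mice. It stood at 4.71 to 63.4 in naive, 3.11 to 10.2 in EAE and 4.41 to 9.09 in treated libraries. The neutrophil list, 7 of 7, summed to 2185 to 5730, 2834 to 14760 and 6755 to 14913, and the B cell list, 4 of 5, to 811 to 951, 750 to 831 and 888 to 932. The erythroid list, 2 of 4, summed to 21.1 to 33.6, 9.15 to 25.1 and 35.4 to 50.6, and the endothelial and stromal list, 4 of 5, to 2189 to 2975, 2378 to 3296 and 2984 to 3471. Of the 3 tested genes of the last list, 1 passed in EAE against naive mice, Cdh5, which fell. Cdh5 stood at 18.8 to 122 in naive, 2.07 to 17 in EAE and 5.05 to 18.2 in treated libraries. The part of these cells in the GTPase values was not tested. Chemosensory receptor genes, which have no known role in blood progenitors, held 0.146% to 0.175% of the values in naive, 0.103% to 0.117% in EAE and 0.0774% to 0.096% in treated libraries. With their share as a term in the model the call of Gbp3 in EAE against naive mice held (adjusted p = 0.0468 by limma-trend). All 4 member calls in treated against naive mice were lost (0.242 to 0.991). The log2 fold change there was 0.87 for Igtp and 1.38 for Gbp3, against 0.97 and 0.82 without the term, while Gbp2 was at 0.47 and Gbp4 at -0.05. Group and share cannot be told apart.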

How the data were processed

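RNA of sorted LSK cells was prepared with the RNeasy micro kit, per the labels' protocols, and the 9 libraries were grouped by their treatment label. Nothing pairs mice across groups, and replicate numbers follow the order of deposition. The deposited table, with 14940 gene symbols, holds whole numbers that are treated as a score of the authors and not as counts. In the logarithms of the 4577 genes whose mean reached 500, only 7.65e-05% and 6.77e-05% of the variance lay in principal components 7 and 8. Independent read counts would not obey such relations, so part of the spread within groups is missing and depth is unknown. The submitters' processing notes name DESeq2, with no version. The sources used here do not give the aligner, counting tool, genome build or annotation.

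Values were divided by median-of-ratios factors (0.9065 to 1.115). The 13018 genes with a deposited value of at least 10 in 3 libraries were tested on log2(value + 1), where changes of low genes come out too small. The test was limma-trend (limma 3.58.1, R 4.3.3), two-sided, with Benjamini-Hochberg adjustment over all tested genes. Group coefficients and the 2 missing directions were fitted together, which leaves 4 residual degrees of freedom. The members, lists, named-gene rule and alternatives were chosen with earlier results of these data known. All members and all tested relatives and signalling genes are named. Of the other lists, up to 4 genes with the largest changes among those called in EAE against naive mice are named; Ly6e, H2-Q4, Cxcl9, Cxcl10, Car1 and single markers were named after their values were seen. Promoter sequences are from RefSeq on GRCm38.p6, and genes were matched by symbol (14144 of the table's symbols matched).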

Additional observations from a re-analysis of the deposited data

How the results depend on the processing

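Each comparison was refitted under 17 alternatives. Of 357 member values, 321 kept direction and call, 6 calls were lost, 13 were gained and 17 turned sign; none of those 17 was called under its alternative, and Gbp4 in treated against naive mice had been called before. In EAE against naive mice, 1059 genes were called without scaling, 3485 with group coefficients alone and 108 with the chemosensory term, and leaving out single libraries gave 1239 to 2624. Members called there were 2 with group coefficients alone and 1 to 2 without single libraries: Igtp joined Gbp3 without EAE replicate 2 (adjusted p = 0.0293, limma-trend, with 0.0293 to 0.73 over its alternatives). In treated against EAE mice the chemosensory term left 0 genes called by limma-trend. In treated against naive mice, 1073 genes were called without scaling (489 higher and 584 lower, with the median of all genes at -0.11), 3920 with group coefficients alone, 18 with the chemosensory term and 4442 with the compared groups alone. Leaving out libraries gave 1234 to 3327, the lowest without naive replicate 1 and the highest without EAE replicate 3, with 2967 without EAE replicate 2. Members called there were 0 with the chemosensory term, 7 with the compared groups alone and 3 to 7 without single libraries. Fits on 8 libraries held 1 missing direction as a term and fits on 6 libraries held 0, so spread may be understated there. Other causes were not tested.

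Sign changes were as follows. In EAE against naive mice, Irgm1 was -0.03 with upper-quartile scaling and -0.01 to 0.08 without single libraries, and Gbp9 was 0.00 with a pseudocount of 10 and -0.34 to 0.19 without single libraries. Gbp4 was -0.48 with the chemosensory term and -0.15 to 0.33 without single libraries, Gbp2 was -0.29 to 0.05 and Gbp7 -0.14 to 0.10. In treated against EAE mice, Gbp3 was -0.08 without scaling, -0.02 with upper-quartile scaling and -0.08 to 0.06 without single libraries. In treated against naive mice the chemosensory term gave -0.05 for Gbp4 and -0.19 for Gbp7. No paired analysis was possible because the labels give no replicate number that is shared across the groups.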

Other observations

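Of 13 inflammasome genes, all tested, 6 were called higher in EAE against naive mice and 6 in treated against naive mice, with none falling. Over all tested genes 9.13% and 10.2% were called higher. The 6 include Mefv and Nlrp3, which passed the filter on low values only through the immunized libraries, so their tests are not used. As a description, Mefv, which encodes pyrin, had log2 fold changes of 3.33 and 3.43, from a naive level of 2.56. Nlrp3 had 1.92 and 1.96, from naive values of 5.6 to 21.7. Casp4, which senses bacterial lipopolysaccharide in the cytosol, rose by 1.18 ± 0.25 and 0.86 ± 0.25, and Naip2 by 0.68 ± 0.14 and 0.62 ± 0.14. None of the 13 passed between treated and EAE mice, and the median log2 fold change was 0.01, where the GTPase genes had 0.67. This contrast between the lists was not tested.

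Autophagy conjugation genes help place immunity-related GTPases and guanylate-binding proteins on vacuoles. They were listed together with autophagy genes outside conjugation, such as Becn1. Of 16 listed, 14 were tested, of which 4 rose in EAE against naive mice (9.13% of all tested genes). These were Atg3 by 0.55 ± 0.14, Atg16l1 by 0.50 ± 0.13, Becn1 by 0.35 ± 0.09 and Gabarap by 0.31 ± 0.09. In treated against naive mice 1 rose (10.2% of all tested genes), Gabarap by 0.43 ± 0.09, and in treated against EAE mice none passed, with a median of -0.05. Of 8 genes for lipid anchoring of GTPases, none passed in any comparison by limma-trend, while 1, 0 and 2 had an unadjusted p under 0.05 in EAE against naive, treated against EAE and treated against naive mice. Over all tested genes these shares were 28.8%, 3.87% and 31.1%.

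The table also has a row named Irgm, which RefSeq lists as another name of Irgm1. It stood between 1.1 and 24.8 in the 9 libraries, and which sequence it counts is not given in the sources used here.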
